A study of Mus musculus with 8 samples.

Results

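Immediate early genes are switched on within minutes of a strong synaptic or growth-factor signal, with no need for new protein, through factors such as CREB and SRF that already sit at their promoters. In striatal projection neurons, which receive cortical glutamate and midbrain dopamine, their RNA is a common marker of recently active cells. The 10 genes described here were named as a list, by a rule that uses no measured value, though with earlier results of these data known: Fos, Fosb, Junb, Jun, Egr1, Egr3, Arc, Nr4a1, Npas4 and Homer1, 10 of the 32285 genes in the count matrices. Fos, Fosb, Junb and Jun encode subunits of the AP-1 transcription factor. Egr1 and Egr3 encode zinc-finger factors, Nr4a1 an orphan nuclear receptor and Npas4 a neuron-specific factor that responds to calcium entry. Arc encodes a protein that removes AMPA receptors from synapses, and Homer1 a scaffold of the postsynaptic density.

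The nuclear RNA came from frozen striatum of 32 mice, 12 weeks of age, of 8 inbred strains: A/J, C57BL/6, 129S1/SvImJ, NOD/ShiLtJ, NZO/HlLtJ, CAST/EiJ, PWK/PhJ and WSB/EiJ. Every mouse belonged to an unmodified strain and the labels name no treatment, so no group here was stimulated or served as a control. Each of 4 batches pooled nuclei of 1 mouse per strain, and the authors assigned each nucleus to a strain by its genotype. A mouse was therefore a batch and a strain together, with 4 mice per strain; sex varied between mice and was not used here. The deposited strain name C57BL/6NJ differs from the C57BL/6J of the design text, and the strain is called C57BL/6.

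The analysis covered 55672 nuclei in 18 clusters named by the authors, 11826 to 15626 per batch, with a median of 3232 (batch 3) to 4931 unique molecular identifiers (UMIs) per nucleus. Of 54141 barcode sequences of these nuclei, 1517 occurred in more than 1 batch. Defining markers matched most cluster names: Drd1 stood at 218.8 CPM (UMIs of a gene scaled to a common library total) in the Drd1+ neuron cluster against 10.2 CPM in the Drd2+ one, and Drd2 at 11.9 against 437.1 CPM. The cluster named Mural cells went against its name, with more of the projection neuron gene Pde10a (2311 CPM) than of Pdgfrb (662 CPM), and is given only by its name. Endothelium held Pde10a at 1125 CPM, a gene of neurons; the part of neuronal RNA in its counts was not tested.

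In these genes 3 mice stood apart. In Drd1+ neurons the summed level of the 9 genes other than Homer1 was 61.2 CPM in the 129S1/SvImJ mouse of batch 4, 83.5 CPM in the A/J mouse of batch 1 and 86.4 CPM in the WSB/EiJ mouse of batch 1. The other 29 mice ranged from 133.6 to 369.9 CPM, with a median of 243.9. These 3 mice were picked for this low sum, so the gap is a description with no test, and several results are also given without them, each named as such.

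The promoter sequences are shown as a description. From mouse to mouse 8 of the 10 genes moved together, Homer1 in part, and Jun with none of them (below, over the 32 mice). A link between this and the promoter letters was not tested, and no window was at hand for Egr1, Egr3 and Arc. Windows were at hand for 7 genes, from RefSeq on GRCm38.p6, and the 250 bases before the annotated start are printed 5′ to 3′ along the gene's strand for 5 of them. Capitals mark matches to TGACG or its complement CGTCA (the core of the cAMP response element to which CREB binds) and, in Nr4a1, to the EGR element GCGNGGGCG on the other strand; the matches do not overlap each other.
Fos, chr12:85473640-85473889, plus strand: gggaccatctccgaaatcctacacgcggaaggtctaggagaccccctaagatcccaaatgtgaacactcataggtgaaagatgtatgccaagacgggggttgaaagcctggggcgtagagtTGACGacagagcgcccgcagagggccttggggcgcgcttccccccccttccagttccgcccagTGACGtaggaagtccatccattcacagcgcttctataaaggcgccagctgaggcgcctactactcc
Nr4a1, chr15:101266596-101266845, plus strand: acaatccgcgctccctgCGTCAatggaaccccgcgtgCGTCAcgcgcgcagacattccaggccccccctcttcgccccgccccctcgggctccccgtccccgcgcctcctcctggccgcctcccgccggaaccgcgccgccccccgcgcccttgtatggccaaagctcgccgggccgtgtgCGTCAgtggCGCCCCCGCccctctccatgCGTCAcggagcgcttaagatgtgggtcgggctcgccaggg
Npas4, chr19:4989972-4990221, minus strand: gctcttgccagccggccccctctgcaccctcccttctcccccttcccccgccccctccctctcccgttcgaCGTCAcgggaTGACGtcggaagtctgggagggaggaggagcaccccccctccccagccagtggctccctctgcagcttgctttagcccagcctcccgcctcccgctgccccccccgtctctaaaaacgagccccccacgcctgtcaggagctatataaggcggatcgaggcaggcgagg
Homer1, chr13:93303507-93303756, plus strand: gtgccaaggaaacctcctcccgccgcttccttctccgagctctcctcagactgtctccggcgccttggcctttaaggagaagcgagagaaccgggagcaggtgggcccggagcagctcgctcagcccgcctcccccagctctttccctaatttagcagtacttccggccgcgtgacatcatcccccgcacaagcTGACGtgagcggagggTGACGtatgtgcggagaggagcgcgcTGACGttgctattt
Jun, chr4:95052223-95052472, minus strand: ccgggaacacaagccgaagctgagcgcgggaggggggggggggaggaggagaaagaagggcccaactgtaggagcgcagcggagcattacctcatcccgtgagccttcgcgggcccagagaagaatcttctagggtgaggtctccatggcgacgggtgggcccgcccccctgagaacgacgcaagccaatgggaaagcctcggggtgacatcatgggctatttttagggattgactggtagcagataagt
The Nr4a1 and Npas4 windows lie inside the annotated gene bodies, at a start internal to the gene. This core occurred 2 times in Fos (129 and 66 bases before the start), 4 times in Nr4a1, 2 times in Npas4 and 3 times in the first of the 2 Homer1 windows, all 3 of them within the last 56 bases. It also occurred once each in Fosb and Junb, and it was not found in the Jun window or the second Homer1 window. In all, 6 of 7 genes held it in at least 1 window, against 20.8% of all 32817 promoter windows. An EGR element was found in Fosb and Nr4a1 (5.56% of all windows), and the full cAMP response element TGACGTCA (1.79%), the AP-1 element TGANTCA (7.81%) and the CArG box to which SRF binds (1.63%) in none of the 7 genes. Both strands were searched over the full windows of 300 bases, which run to 50 bases after the start. These matches are letters in a window and show no binding.

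Open chromatin was read from the same nuclei, and the authors' deposited list of 291715 peaks gives positions only. A peak covered at least 10 bases of the promoter window in 5 of 7 genes (Fosb, Jun, Nr4a1, Npas4 and Homer1, not Fos or Junb), against 52.7% of all windows. All 10 gene bodies held a peak, from 1 in Fos, Junb, Jun, Egr1 and Arc to 8 in Nr4a1, 8 in Npas4 and 31 in Homer1, whose gene is 101373 bases long; 80.2% of protein-coding gene bodies held one. The list pools all nuclei, so it does not show in which cells a peak was open.

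Across cell types, Npas4, Homer1 and Nr4a1 each had their highest level in projection neurons, and Jun in vessels and glia. Interneurons were lower. Npas4 was 20.1 CPM in Nxph1+, 13.5 CPM in Chat+ and 7.84 CPM in Sst+ interneurons, against 28.4 CPM in ependyma. Homer1 was 188, 76.8 and 107 CPM in the same interneurons, against 277 CPM in ependyma. Levels are CPM of the summed nuclei of a cluster, and since clusters were built from expression, differences between clusters are described without a test. Npas4 stood highest in Drd2+ neurons (57.2 CPM) and Drd1+ neurons (47.0 CPM), followed by the cluster Drd1+ neuron_2 (40.4 CPM), and lowest in oligodendrocytes (3.06 CPM), astrocytes (2.50 CPM) and macrophages (2.01 CPM). Over the 32 mice the SD was 29.02 CPM in Drd2+, 24.0045 CPM in Drd1+ and 20.4 CPM in Drd1+ neuron_2, which is more than the distance between the 3 levels. Within mice, Npas4 was higher in Drd2+ than in Drd1+ neurons in 22 of 32, higher in Drd2+ neurons than in Drd1+ neuron_2 in 27 of 32 and higher in Drd1+ neurons than in Drd1+ neuron_2 in 24 of 32. It was higher in Drd1+ neurons than in oligodendrocytes in 32 of 32.

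Homer1 had its highest levels in Drd1+ neurons (655 CPM), Drd2+ neurons (611 CPM) and Slc17a7+ neurons (588 CPM), and its lowest in oligodendrocytes (73.7 CPM) and macrophages (58.7 CPM). Its counts do not separate the short form induced by activity from the constitutive long forms. Nr4a1 was led by Drd1+ neuron_2 (63.5 CPM) and Slc17a7+ neurons (62.6 CPM), ahead of Drd2+ (49.5 CPM) and Drd1+ neurons (38.5 CPM), while astrocytes had 5.53 CPM. Egr3 was highest in Drd2+ neurons (35.6 CPM), the Slc17a7+ neuron_2 cluster (33.0 CPM) and Drd1+ neurons (31.9 CPM), which overlapped over mice (SD 13.7, 21.5 and 12.7 CPM), and stood at 7.64 CPM in Nxph1+ interneurons.

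Egr1 differed less than Npas4 between projection neurons and glia, with 39.7 CPM in Drd1+ neuron_2, 39.5 CPM in Drd2+ and 33.4 CPM in Drd1+ neurons and 18.9 CPM in astrocytes, 18.8 CPM in macrophages and 16.3 CPM in oligodendrocytes. The lowest Egr1 level was 4.15 CPM in Chat+ interneurons (4 UMIs; exact Poisson interval 1.13 to 10.6 CPM). The top Egr1 value, 55.2 CPM in fibroblasts, rests on 14 UMIs and has an exact Poisson interval of 30.2 to 92.5 CPM. Arc was highest in Slc17a7+ neurons (47.0 CPM) and stood at 29.6 CPM in Drd2+ and 24.96 CPM in Drd1+ neurons, with 22.5 CPM in oligodendrocytes and 19.4 CPM in astrocytes. Arc was higher in Drd1+ neurons than in oligodendrocytes in 21 of 32 mice.

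The AP-1 subunits split by cell type. Jun reached 110 CPM in endothelium, 23.8 CPM in macrophages, 22.4 CPM in astrocytes and 16.6 CPM in oligodendrocytes, against 3.29 CPM in Drd2+ and 2.69 CPM in Drd1+ neurons, the lowest level among clusters with a Jun UMI. Jun was higher in oligodendrocytes than in Drd1+ neurons in 32 of 32 mice and higher in endothelium in 29 of 29. Junb was highest in macrophages (55.4 CPM), followed by Drd2+ neurons (38.3 CPM), and stood at 8.1 CPM in oligodendrocytes. Fos was highest in Drd1+ neuron_2 (12.8 CPM over the pooled nuclei), followed by Nxph1+ interneurons (7.64 CPM) and ependyma (7.51 CPM). It stood at 6.9 CPM in Drd2+ neurons, 4.9 CPM in Drd1+ neurons and 1.7 CPM in oligodendrocytes. Against Nxph1+ interneurons of the same mouse, Fos was higher in Drd1+ neurons in 16 of 32 mice and lower in 14. In Drd2+ neurons it was higher in 19 and lower in 12. The pooled value of Drd1+ neuron_2 was carried by few mice: the median over mice was 7.36 CPM (0 to 62.2) in Drd1+ neuron_2 and 6.47 CPM (0 to 18.8) in Drd2+ neurons. Drd1+ neuron_2 was the higher of these 2 in 19 of 32 mice and the lower in 12. No Fos UMI was found in 4 clusters, where 3 UMIs allow up to 1.52 CPM (Unknown, 861 nuclei), 3.92 CPM (Sst+ interneurons, 165), 3.11 CPM (Chat+ interneurons, 120) and 14.8 CPM (Unknown_2, 57). Fosb was highest in Drd1+ neuron_2 (4.69 CPM) and Drd2+ neurons (4.52 CPM) and stood at 0.802 CPM in astrocytes, 0.753 CPM in oligodendrocytes and 0.507 CPM (1 UMI) in Unknown, with no UMI in 5 clusters of 57 to 390 nuclei.

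**Figure D1:**
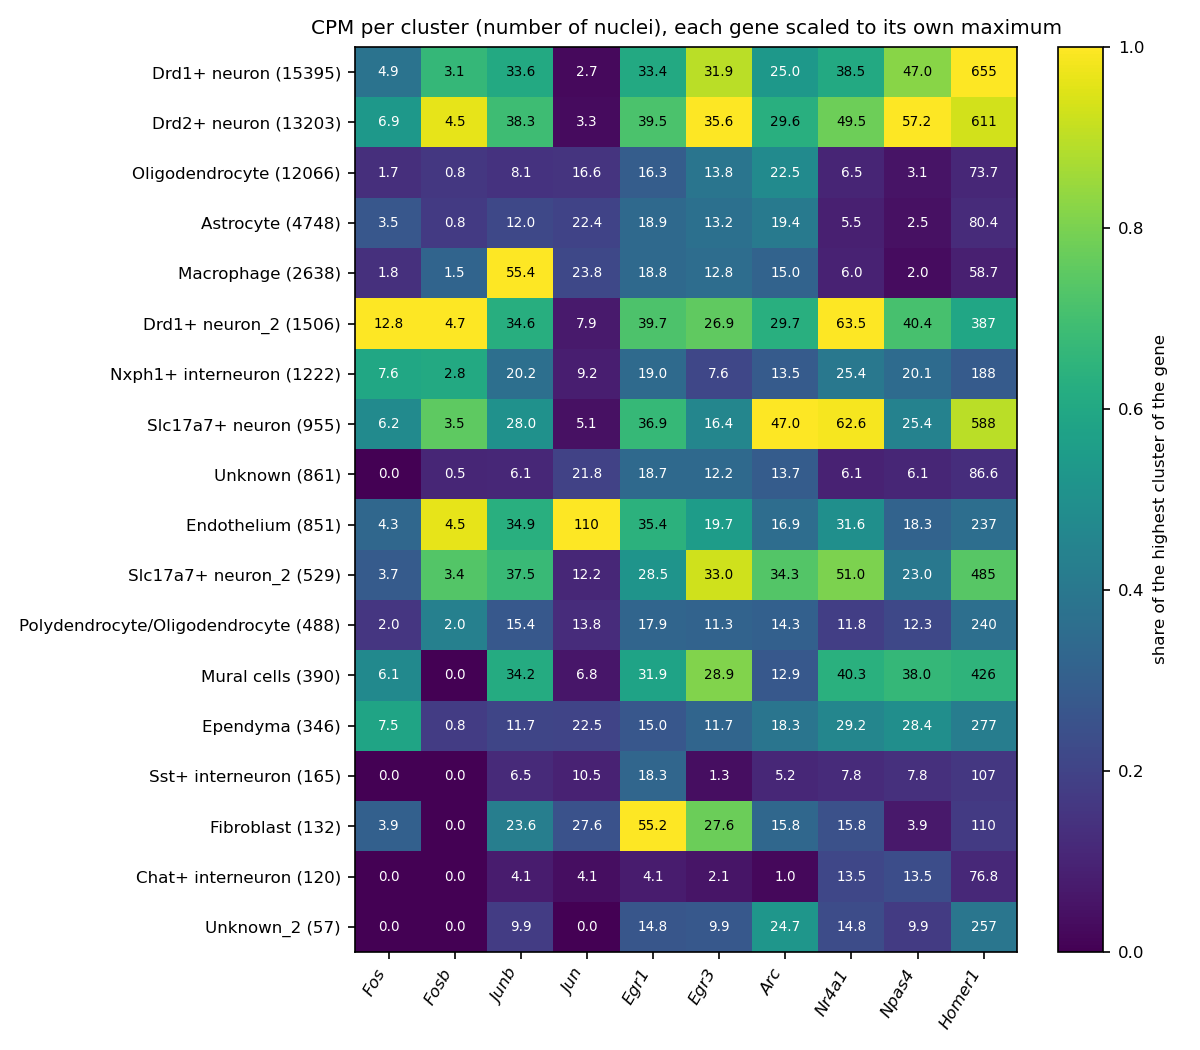
Level of each immediate early gene in each cluster, as numbers in CPM of the summed nuclei, with the number of nuclei beside the cluster name; colour is the share of that gene's highest cluster. Npas4, Nr4a1 and Homer1 each have their highest level in a projection neuron cluster, and Jun in endothelium (110 CPM). Chat+ and Sst+ interneurons are low in Homer1 (76.8 and 107 CPM).

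Within mice, 9 of the 10 genes were higher in Drd2+ than in Drd1+ neurons in most of the 32 mice, as were 36.9% of all 12700 genes tested in both clusters. Drd2+ neurons had the higher value in 27 of 32 mice for Fos and Egr1, 26 for Nr4a1, 24 for Junb, 23 for Fosb, 22 for Egr3, Arc and Npas4, and 19 for Jun, which is near even. Of all genes, 11.9% were higher in Drd2+ neurons in at least 22 mice and 4.50% in at least 27. Homer1 was higher in Drd1+ neurons in 27 of 32, and 7.36% of all genes were so in at least as many. Median depth per nucleus was 5953 UMIs in Drd2+ and 6505 UMIs in Drd1+ neurons.

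Depth was matched by thinning every nucleus to 1000 UMIs. The share of nuclei with an Npas4 UMI was then 4.12% in Drd1+ and 4.89% in Drd2+ neurons, and 0.289% in oligodendrocytes; unthinned it was 16.1%, 17.97% and 0.514%. The thinned share for Fos was 0.403% in Drd1+ neurons (62 of 15385 nuclei; 95% exact binomial interval 0.309 to 0.516%, counting error only), 0.591% in Drd2+ neurons and 0.153% in oligodendrocytes. The share for Arc was 2.24% in Drd1+ neurons, 2.80% in Drd2+ neurons and 2.19% in oligodendrocytes, whose median depth was 1640 UMIs, so in Drd1+ neurons it was at the level of a glial type. Arc and Npas4 were not in 1 ratio across types: 2597 Arc and 4892 Npas4 UMIs in Drd1+ neurons, 477 and 65 in oligodendrocytes. The part of free RNA in the glial counts was not tested.

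The RNA of several of these genes lay to a large part in few neurons. In Drd1+ neurons 559 nuclei with at least 3 Npas4 UMIs, of 15395, held 51.0% of all Npas4 UMIs, and 1 nucleus held 14. The matching share was 42.1% for Nr4a1, 35.9% for Junb, 33.8% for Arc, 28.8% for Egr3, 20.3% for Fosb, 19.97% for Egr1 and 14.3% for Fos, but 2.14% for Jun, whose 280 UMIs lay in 255 nuclei. Homer1 was widespread, with a UMI in 14092 nuclei and at least 3 in 9580. Of the 12066 oligodendrocytes, 465 had an Arc UMI and none had 3 or more, against 222 Drd1+ nuclei with 3 or more. These shares move with each gene's own level and with depth and are not compared by a test.

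Nuclei with Fos RNA carried 7 of the 9 other genes more often in Drd1+ neurons and 8 of 9 in Drd2+ neurons, Jun in neither. Each nucleus was thinned to 2000 UMIs, and within each mouse with at least 5 Fos nuclei the share of nuclei with a UMI of another gene was compared with the nuclei without Fos (sign-flip permutation test over all sign assignments of the mice, two-sided, Benjamini-Hochberg over 9 genes). In Drd1+ neurons (13 mice, 102 Fos nuclei) Npas4 was present in 46.6% ± 18.5 (SD, n = 13) of Fos nuclei and 8.91% ± 2.96 of the others, higher in 13 of 13 mice (exact permutation adjusted p = 0.000732, from the smallest p this number of mice can give). Junb was present in 41.7% against 6.00%, also higher in 13 of 13 mice with the same p.

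Nr4a1 (34.5% against 7.15%) and Arc (31.0% against 5.31%) were higher in 12 of 13 mice, Egr3 (28.3% against 6.72%) in 11 of 13, and Egr1 (24.8% against 6.84%; exact permutation adjusted p = 0.0404) in 8 of 13. Homer1 was near saturation, 78.3% against 66.0% (exact permutation adjusted p = 0.0141). Fosb stood at 9.02% against 0.728%, higher in 5 of 13 mice, and did not pass (exact permutation adjusted p = 0.0625). No Jun UMI was found among the 102 Fos nuclei, which allows up to 2.94%, and 0.570% of the other nuclei had one, so a difference was not detectable at this depth. The same test put Jun lower in 13 of 13 mice (exact permutation adjusted p = 0.000732), which follows from 0 Jun UMIs in the few Fos nuclei of each mouse. With fewer mice left, the Egr1 call was lost without batch 2, 3 or 4 (exact permutation adjusted p from 0.0747 to 0.244) and the Homer1 call without batch 2 (0.125).

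Drd2+ neurons (17 mice, 138 Fos nuclei) gave the 8 genes other than Jun higher, with Npas4 at 40.6% against 10.0% in 17 of 17 mice and Fosb at 9.28% against 0.804% (exact permutation adjusted p = 0.00502). The Egr3 call was lost without batch 2 or 4 (exact permutation adjusted p = 0.0791 and 0.118) and the Fosb call without batch 4 (0.0703). Jun was found in 1 of 138 Fos nuclei, 0.588% against 0.608% as means over mice (exact permutation adjusted p = 1). With Npas4 as the gene that divides the nuclei, an alternative chosen after seeing the data with 31 mice, 8 of 9 genes were higher in both neuron types, against 4.05% of all genes in Drd1+ and 3.98% in Drd2+ neurons at an unadjusted permutation p under 0.05, and Jun was not (0.892% against 0.444% in Drd1+, permutation adjusted p = 0.158). Nuclei share the free RNA of their pool, and doublets were removed by the authors.

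The same exact test was then run for every gene with a mean share of at least 0.5%, a comparison added after seeing the data. This mean gave equal weight to nuclei with and without Fos, so a gene could enter through its share in Fos nuclei. Jun in Drd1+ neurons, absent from the Fos nuclei, was left out by it. The counts and shares below depend on this filter, and the all-gene shares for the division by Npas4 used the same kind of filter. At an unadjusted exact permutation p under 0.05, 1.29% of 12666 genes were higher in Fos nuclei in Drd1+ neurons and 1.77% of 12628 in Drd2+ neurons, against 7 of the 8 members tested and 8 of 9. Lower calls made up 11.5% and 10.2%, so the sides were uneven and these shares are no calibrated chance rate. Adjusted over all these genes, 5 members passed in Drd1+ neurons (Junb, Egr3, Arc, Nr4a1 and Npas4; 0.268% of all genes) and 6 in Drd2+ neurons (Junb, Egr1, Arc, Nr4a1, Npas4 and Homer1; 0.372%).

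**Figure D2:**
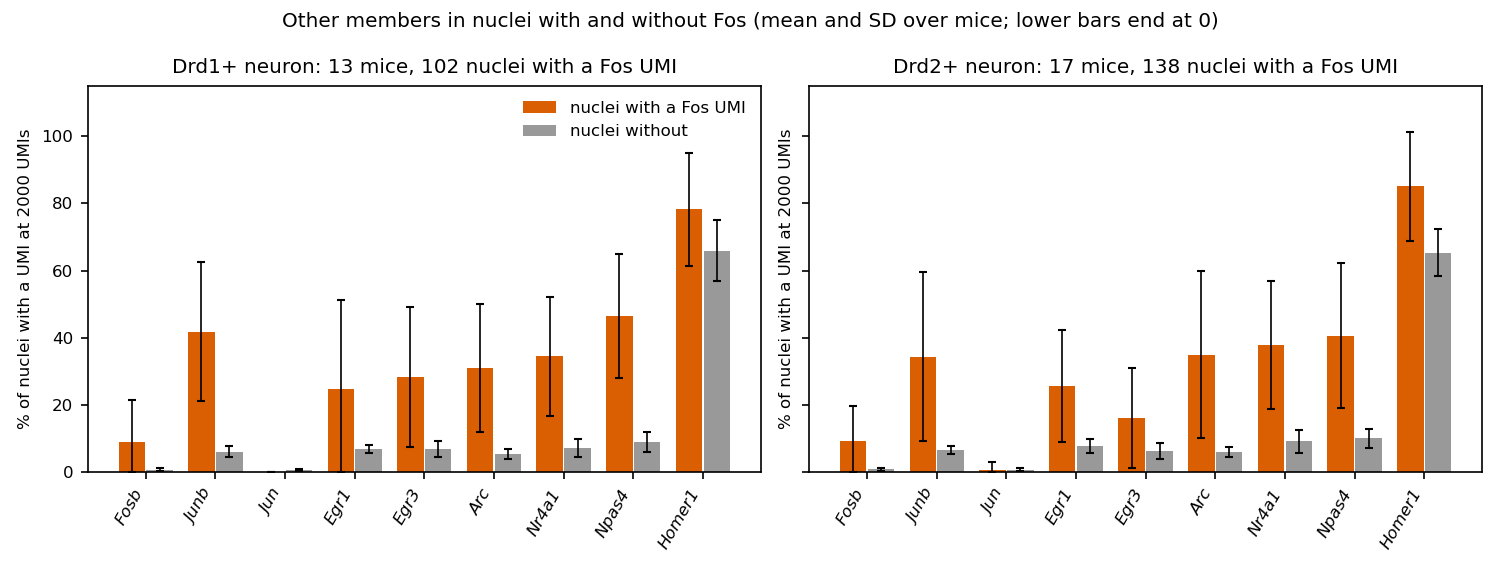
Share of nuclei with a UMI of each gene, in percent after thinning to 2000 UMIs, among nuclei with and without a Fos UMI in Drd1+ and Drd2+ neurons; bars are means over mice and error bars are SD (lower ends stop at 0). In Drd1+ neurons Npas4 stands at 46.6% with Fos and 8.91% without, and Jun shows no increase in either neuron type.

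Strain differences among these genes were modest in number. Each mouse's nuclei of a cluster were summed, and the strain term of edgeR's quasi-likelihood test, with batch in the model, called 3 of 10 genes in Drd1+ neurons at a Benjamini-Hochberg adjusted p under 0.05 (Egr3, Homer1 and Jun), against 61.7% of all 13431 genes tested. In Drd2+ neurons it also called 3 of 10 (Fos, Homer1 and Jun), against 55.9%. All 10 genes passed the filter on low counts in both clusters. Without that filter edgeR called all 10 in each cluster. In Drd1+ neurons the edgeR adjusted p of Npas4 then went from 0.0894 to 4.77e-61, a shift whose cause was not tested. Without the 3 low mice edgeR called 5 in Drd1+ neurons (Nr4a1 and Npas4 added) and 6 in Drd2+ neurons (Egr3, Arc and Npas4 added). These mice were picked by the values of these same genes, so the added calls are no independent test. The share of all genes called in either setting is not given here. Egr3 and Homer1 in Drd1+ neurons passed whichever batch was left out. Jun in Drd1+ neurons did not pass without batch 1, 2 or 3, and in Drd2+ neurons Jun did not without batch 1, 3 or 4, Fos without batch 2 and Homer1 without batch 2 or 3.

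The spread between mice of 1 strain was wide for most of these genes. The biological coefficient of variation left after strain and batch in Drd1+ neurons was 0.726 for Fos, 0.580 for Fosb, 0.542 for Npas4, 0.457 for Nr4a1, 0.444 for Arc and 0.418 for Junb, against a median of 0.0929 over all 13431 genes. Only 0.0968% of genes had a higher value than Fos and 0.417% a higher one than Junb. Egr1 (0.263), Egr3 (0.232), Jun (0.181) and Homer1 (0.130) varied less. Without the 3 low mice the coefficient was 0.515 for Fos, 0.546 for Fosb, 0.354 for Junb, 0.315 for Arc, 0.266 for Npas4, 0.207 for Nr4a1 and 0.134 for Egr1, against a median of 0.0907, and 5.56% of genes were then above Nr4a1 and 21.8% above Egr1. A lower spread follows in part from picking these mice by the values of these same genes.

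PWK/PhJ mice had the highest levels of Npas4, Fos, Egr3 and Jun. In the same edgeR fit each strain was compared with the average of the other 7, 80 comparisons per cluster, of which 9 passed in Drd1+ and 7 in Drd2+ neurons. The adjustment ran over all genes within each strain's comparison, so these calls are not corrected for the number of strains compared. In the strains and directions of these calls, 6.66% to 17% of all genes passed in Drd1+ and 4.25% to 15.2% in Drd2+ neurons. No test set the counts against these shares. PWK/PhJ gave 4 of 10 genes higher in each cluster, against 17% of all genes higher in PWK/PhJ in Drd1+ and 15.2% in Drd2+ neurons. Some of these genes had no called strain term. The strain term of edgeR did not call Npas4 in Drd1+ (adjusted p = 0.0894) or Drd2+ neurons (0.106). It also did not call Fos in Drd1+ (0.0598) or Egr3 in Drd2+ neurons (0.0531).

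Npas4 in Drd1+ neurons of the 4 PWK/PhJ mice (batches 1 to 4) was 98.4, 88.7, 70.3 and 93.5 CPM, and the lowest, the median and the highest of all 32 mice were 4.03, 51.0 and 98.4 CPM. Of the 28 mice of other strains, 2 were above the lowest PWK/PhJ mouse. The difference was 1.05 ± 0.34 (log2, SE; edgeR adjusted p = 0.0210), and in Drd2+ neurons, where the PWK/PhJ mice had 123, 130, 80.3 and 81.5 CPM, 1.01 ± 0.35 (edgeR adjusted p = 0.0320).

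Fos in Drd1+ neurons was 6.15, 13.5, 8.00 and 15.7 CPM in PWK/PhJ mice, against 0, 1.12, 5.80 and 0.785 CPM in A/J mice. The 4 PWK/PhJ and 4 A/J mice did not overlap, while 7 mice of other strains were above the lowest PWK/PhJ mouse. PWK/PhJ was higher by 1.36 ± 0.44 (log2, SE; edgeR adjusted p = 0.0216) and A/J lower by −1.83 ± 0.62 (edgeR adjusted p = 0.0453). In Drd2+ neurons the Fos values were 10.3, 17.4, 8.45 and 17.6 CPM in PWK/PhJ and 0.353, 1.84, 4.78 and 2.38 CPM in A/J, with differences of 1.24 ± 0.36 (edgeR adjusted p = 0.0112) and −1.72 ± 0.49 (edgeR adjusted p = 0.0172). Lower calls for A/J made up 6.66% of all genes in Drd1+ and 6.14% in Drd2+ neurons. The A/J mouse of batch 1 is one of the 3 low mice, and without those 3 the Drd1+ difference of A/J in Fos was −1.64 (edgeR adjusted p = 0.0545). This call was also lost with no batch in the model (−1.77, edgeR adjusted p = 0.0598).

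Egr3 in Drd1+ neurons was 57.02, 69.3, 40.4 and 35.05 CPM in PWK/PhJ, 28.6, 18.2, 20.3 and 14.04 CPM in NZO/HlLtJ, and 15.05, 21.2, 28.3 and 22.3 CPM in A/J. PWK/PhJ lay above all mice of both other strains. The differences from the other strains were 0.77 ± 0.17 for PWK/PhJ (log2, SE; edgeR adjusted p = 0.00146), −0.68 ± 0.21 for NZO/HlLtJ (edgeR adjusted p = 0.0258, with 8.74% of all genes called lower) and −0.64 ± 0.20 for A/J (edgeR adjusted p = 0.0251, and 0.0724 without the 3 low mice). In Drd2+ neurons Egr3 passed in PWK/PhJ alone of the 8 strains (0.78 ± 0.22, edgeR adjusted p = 0.00886), with values of 62.9, 72.2, 54.3 and 38.7 CPM.

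Jun, at 1 to 27 UMIs per mouse in Drd1+ neurons, was 5.87, 5.20, 5.05 and 2.77 CPM in PWK/PhJ against a mean of 2.67 ± 1.35 CPM (SD, n = 32) over all mice. It was higher in PWK/PhJ by 0.99 ± 0.27 in Drd1+ (log2, SE; edgeR adjusted p = 0.00384) and by 0.93 ± 0.29 in Drd2+ neurons (edgeR adjusted p = 0.0108). C57BL/6 had Jun at 1.70, 0.464, 2.25 and 1.70 CPM in Drd2+ neurons, lower than the other strains by −1.20 ± 0.41 (edgeR adjusted p = 0.0447, with 4.25% of all genes called lower). This last call was lost whichever batch was left out (edgeR adjusted p from 0.0715 to 0.268) and with no batch in the model (0.0578).

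Each of the 16 calls of a strain in the 2 clusters was lost when at least 1 of the 4 batches, and so 8 mice, was left out, and none turned its direction. In the 33 cases where a call was lost this way, the log2 difference was 69.1% to 116% of its size over all mice (median 90.1%). Without batch 2, 1 of the 9 comparisons in Drd1+ neurons and 1 of the 7 in Drd2+ neurons passed, in both Jun in PWK/PhJ. Without batch 1, 4 of the 9 and 3 of the 7 remained, and of the PWK/PhJ calls in Drd1+ neurons Egr3 remained. Markers of some other cells moved with the strain: the summed oligodendrocyte markers in Drd1+ neurons were 1128 to 1192 CPM in PWK/PhJ and 830 to 1119 CPM in the other 28 mice, and cholinergic markers 8.28 to 13.5 CPM against 1.09 to 10.3 CPM. Microglia markers (38.3 to 51.6 CPM against 31.3 to 60.3 CPM) lay within the range of the other mice there. So did the markers of endothelium, oligodendrocyte precursors, excitatory neurons and astrocytes. Median depth was 4803 to 6296 UMIs against 4819 to 7637 UMIs. In Drd2+ neurons the oligodendrocyte markers were 1224 to 1344 CPM in PWK/PhJ against 884 to 1192 CPM, and the cholinergic markers 15.02 to 20.1 CPM against 2.43 to 13.3 CPM, with no overlap in either; astrocyte markers were 129.5 to 164 CPM against 92.6 to 139.9 CPM, and median depth was 4170 to 5652.5 against 4229 to 7078.5 UMIs. Their part in the result was not tested; oligodendrocytes held Npas4 at 3.06 CPM, Fos at 1.7 CPM and Jun at 16.6 CPM.

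Homer1 was lowest in WSB/EiJ. In Drd1+ neurons the 4 WSB/EiJ mice had 598, 541, 416 and 404 CPM and the 4 C57BL/6 mice 810, 910, 676 and 722 CPM, with no overlap. WSB/EiJ was lower by −0.46 ± 0.10 (log2, SE; edgeR adjusted p = 0.00286, with 7.3% of all genes called lower) and C57BL/6 higher by 0.32 ± 0.10 (edgeR adjusted p = 0.0300, with 8.01% called higher). In Drd2+ neurons WSB/EiJ had 585, 539, 415 and 371 CPM, a difference of −0.41 ± 0.12 (edgeR adjusted p = 0.0262, with 6.77% called lower), and C57BL/6 did not pass. With no batch in the model the Homer1 differences lost their calls (edgeR adjusted p = 0.0536 for WSB/EiJ and 0.203 for C57BL/6 in Drd1+, 0.132 for WSB/EiJ in Drd2+), with differences of nearly the same size (−0.45, 0.31 and −0.40).

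Junb, Egr1, Arc, Fosb and Nr4a1 passed in no strain in either cluster. Nr4a1 in Drd1+ neurons had its highest strain means in NOD/ShiLtJ (55.6 ± 8.29 CPM, SD, n = 4) and PWK/PhJ (54.6 ± 14.8 CPM) and its lowest in WSB/EiJ (23.9 ± 5.97 CPM), with an adjusted p of 0.0788 for the strain term by edgeR. Arc was lowest in NZO/HlLtJ (18.4 ± 3.71 CPM) and highest in PWK/PhJ (37.97 ± 5.20 CPM), and Egr1 lowest in WSB/EiJ (27.9 ± 12.2 CPM) and highest in PWK/PhJ (40.8 ± 5.48 CPM). Junb was lowest in NZO/HlLtJ (30.4 ± 7.58 CPM) and highest in NOD/ShiLtJ (51.0 ± 8.53 CPM), and Fosb lowest in A/J (1.59 ± 1.24 CPM) and highest in PWK/PhJ (5.03 ± 3.84 CPM). Without the 3 low mice the WSB/EiJ means were 26.8 ± 1.88 CPM for Nr4a1 and 32.7 ± 9.19 CPM for Egr1 and the A/J mean of Fosb was 1.87 ± 1.35 CPM (SD, n = 3). The mice of most strains overlapped in all 5 genes.

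**Figure D3:**
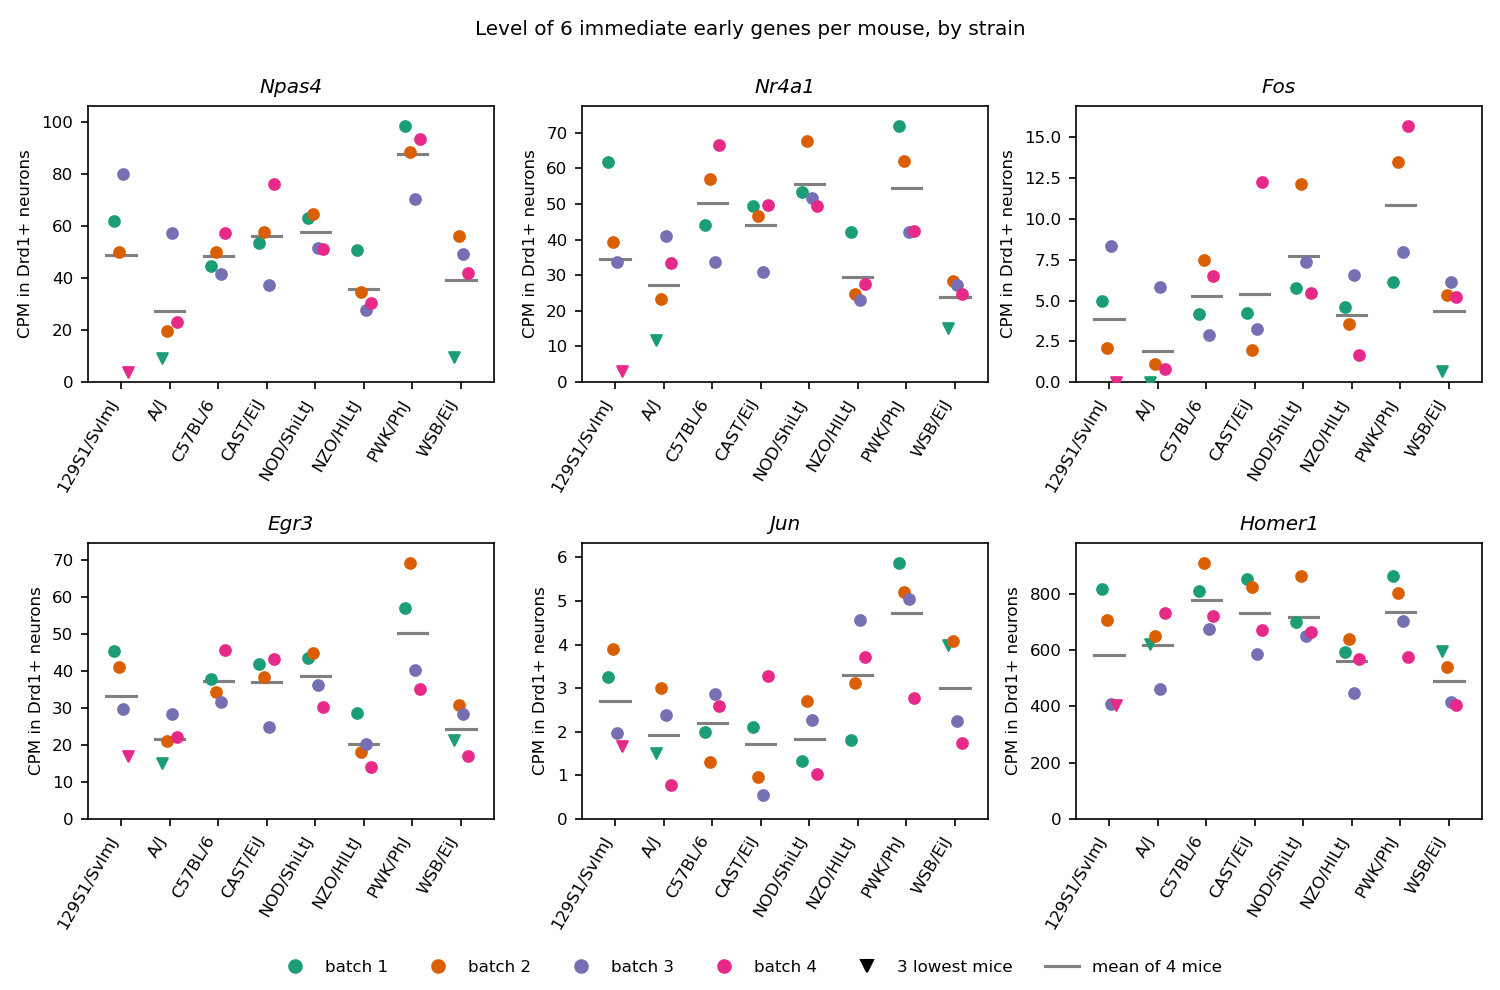
Level of 6 of the genes in Drd1+ neurons by strain, in CPM; each point is 1 mouse coloured by batch, triangles are the 3 low mice and the line is the mean of 4 mice. PWK/PhJ has the highest mean for Npas4 (70.3 to 98.4 CPM). The 3 triangles lie at the bottom for Npas4, Nr4a1 and Fos, but not all 3 do for Jun or Homer1.

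In the other clusters tested, the strain term of edgeR called Jun in oligodendrocytes (1 of 5 genes that passed the filter; adjusted p = 0.0280; 34.8% of all genes) and in endothelium (1 of 3; adjusted p = 0.0196; 3.23%), and Npas4 in Drd1+ neuron_2 (1 of 7; adjusted p = 0.0125; 17.3%). It called 0 of 4 genes in astrocytes (21.5%), 0 of 2 in macrophages (24.8%), 0 of 1 in Nxph1+ interneurons (1.53%) and 0 of 1 in the Polydendrocyte/Oligodendrocyte cluster (1.24%); in these 4 clusters 0 genes had an unadjusted p under 0.05 by edgeR and 0 passed by DESeq2. Jun in oligodendrocytes was highest in NZO/HlLtJ (27.0 ± 7.12 CPM, SD, n = 4) and lowest in WSB/EiJ (11.5 ± 5.10 CPM, and 13.3 ± 4.36 CPM without the low mouse, n = 3), from 2 to 27 UMIs per mouse. Jun in endothelium was lowest in NZO/HlLtJ (49.6 ± 41.2 CPM) and highest in 129S1/SvImJ (205 ± 172 CPM, and 244 ± 187 CPM without the low mouse, n = 3), with 1 to 61 UMIs per mouse. In oligodendrocytes NZO/HlLtJ was thus the strain with most Jun and in endothelium the one with least. Npas4 in Drd1+ neuron_2 was 73.8 ± 24.5 CPM in PWK/PhJ, 25.4 ± 15.1 CPM in A/J and 19.1 ± 16.3 CPM in WSB/EiJ, the last 2 being 31.4 ± 11.3 and 22.4 ± 18.2 CPM without the low mice (n = 3). These clusters were fitted with all mice only, not without the 3 low mice. Leaving out a batch ended each call: batch 1, 2 or 3 for Jun in oligodendrocytes, 2 or 3 for Jun in endothelium and 1 or 4 for Npas4. The number of genes called also rose, to 4 in Drd1+ neuron_2 without batch 3 and to 2 in endothelium without batch 4. The share of all genes called in either setting is not given here, so these counts are not read as a result about these genes. The Jun calls were also lost with no batch in the model (edgeR adjusted p = 0.0925 in oligodendrocytes and 0.351 in endothelium), and that in oligodendrocytes by DESeq2 (adjusted p = 0.0657).

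Homer1 was the gene whose strain pattern differed between Drd1+ and Drd2+ neurons. The interaction of strain and cluster, with the mouse as a block, had an edgeR adjusted p of 0.00332 for Homer1 and 0.171 (Egr3) to 0.835 for the other 9, against 4.58% of all genes called. The log2 ratio of Drd2+ to Drd1+ level within a mouse averaged −0.23 ± 0.15 (SD, n = 4) in C57BL/6 and −0.18 ± 0.07 in A/J (−0.16 ± 0.05 without the low mouse, n = 3), but 0.02 ± 0.06 in NZO/HlLtJ. All 4 mice of C57BL/6, A/J, CAST/EiJ and WSB/EiJ were below 0, and NZO/HlLtJ ranged from −0.06 to 0.08. The edgeR adjusted p was 0.0109 without the 3 low mice. The call was lost without batch 1 (edgeR adjusted p = 0.141) or batch 2 (0.120), and without the mouse block (1). Without batch 2 Junb passed in its place (0.0162). Egr3 also passed without batch 3 (edgeR adjusted p = 0.0414), and Junb with no filter on low counts (0.0016).

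Over the 32 mice, levels in Drd1+ and Drd2+ neurons rose and fell together for 9 of 10 genes. On log2 CPM with batch means removed, Pearson's r was 0.94 for Npas4 (Spearman's rho 0.89), 0.92 for Homer1 (0.88), 0.91 for Nr4a1 (0.80) and 0.87 for Fos (0.78), each with a permutation adjusted p over the 10 genes at most 4.29e-05. Junb (0.81), Egr3 (0.81), Egr1 (0.80), Arc (0.77) and Fosb (0.52, permutation adjusted p = 0.00519) also passed. Of all 12700 genes tested in both clusters, 49.8% had an r at or above that of Fosb, the lowest of the 9; 20.3% were above Arc, 16.2% above Egr1, 15.2% above Egr3, 15.1% above Junb, 9.06% above Fos and 2.06% above Npas4. Jun did not pass (r = 0.27, rho = 0.27, permutation adjusted p = 0.158), from 1 to 27 UMIs per mouse.

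Npas4 kept r = 0.91 without the 2 mice farthest from the median, and 0.83 without the 3 low mice. Within batches r for Npas4 was 0.98, 0.92, 0.78 and 0.96, and for Nr4a1 0.97, 0.69, 0.31 and 0.97. For Jun, which did not pass over all mice, it was 0.66, 0.56, −0.19 and −0.09. Without the 3 low mice 9 of 10 genes still passed, with r = 0.66 for Nr4a1, 0.56 for Egr1 and 0.48 for Arc. The 2 libraries of a mouse share the handling of its tissue. They share the pool and its free RNA with all mice of the batch, whose means were removed. The median r over all genes was 0.515. With strain means also removed the median fell to 0.211, while Npas4 had 0.934, and 0.472% of genes were higher.

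**Figure D4:**
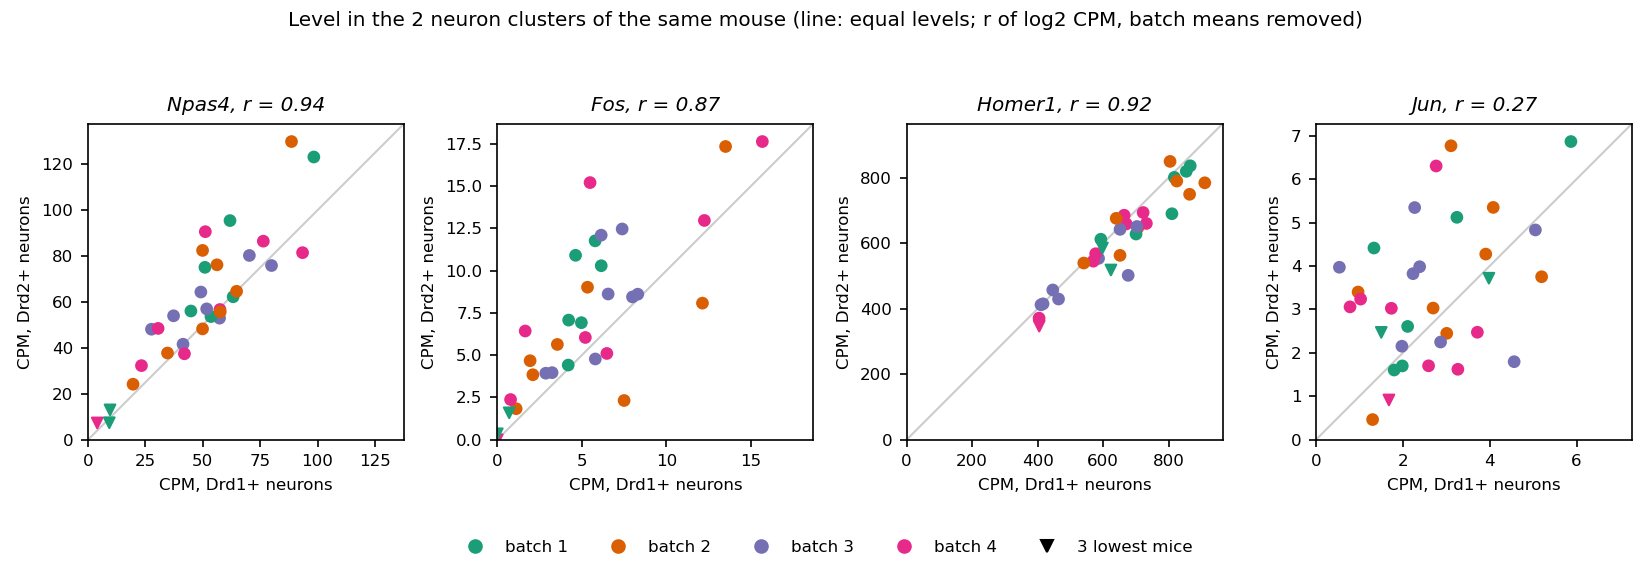
Level in Drd2+ neurons against the level in Drd1+ neurons, in CPM, for 4 genes; each point is 1 of 32 mice coloured by batch, triangles are the 3 low mice and the line marks equal levels. Mice high in one neuron type are high in the other for Npas4 (r = 0.94 on log2 CPM with batch means removed), and for Jun the relation did not pass (r = 0.27).

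The genes also moved with one another. Of the 45 pairs in Drd1+ neurons 32 passed (permutation of mice within batch, Benjamini-Hochberg over 45), with r of at least 0.44, a value reached by 4.88% of all pairs of the 8996 genes of at least 10 CPM. The 8 genes other than Jun and Homer1 gave 28 of 28 pairs, led by Arc with Npas4 (r = 0.91, rho = 0.84), Nr4a1 with Npas4 (r = 0.91, rho = 0.83) and Fos with Arc (r = 0.90, rho = 0.85). Arc with Npas4 held within batches, at 0.96, 0.86, 0.90 and 0.91, and at 0.87 without the 2 farthest mice. Not all of the 28 pairs did. In batch 3 they ran from 0.06 (Fosb with Nr4a1) to 0.90 (Arc with Npas4), with 0.16 for Egr1 with Nr4a1. In batch 2 the lowest was 0.18 (Junb with Egr3). Homer1 passed with Nr4a1 (r = 0.68), Egr3 (0.62), Egr1 (0.53) and Npas4 (r = 0.44; rho = 0.31, permutation adjusted p = 0.126 for rho), and not with Arc (r = 0.39, permutation adjusted p = 0.0533), Fos, Junb, Fosb or Jun. The relation of Homer1 with Egr1 and Npas4 did not hold in batch 3 (r = −0.47 and −0.01). Jun passed with 0 of 9 genes, with r from −0.05 to 0.28. Without the 3 low mice 28 of 45 pairs passed.

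**Figure D5:**
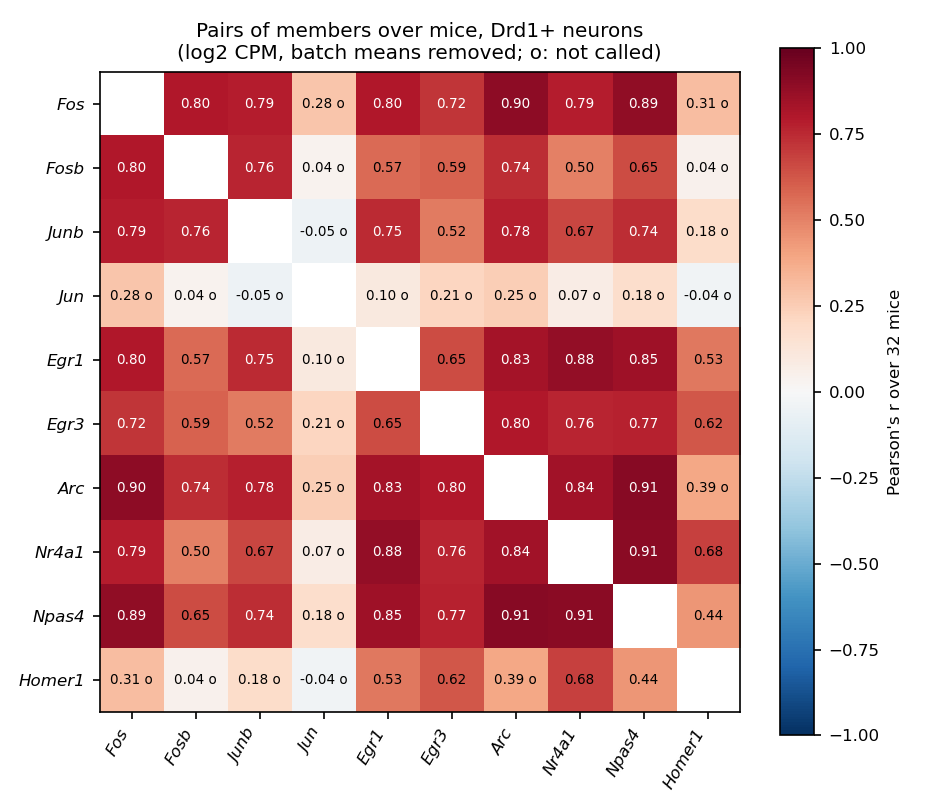
Pearson's r between each pair of the 10 genes over 32 mice in Drd1+ neurons, on log2 CPM with batch means removed. The 8 genes other than Jun and Homer1 form a block in which every pair passed, and the row of Jun lies between −0.05 and 0.28.

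Genes most like each member were ranked by r over the 32 mice after strain and batch means were removed, among 8996 genes of at least 10 CPM in Drd1+ neurons. Of the 3 genes most like each, other members took 13 of 30 places; Fos, Fosb and Jun, under 10 CPM, could take none, which left 7 members. The rest for Fos was Egr4 (0.90), for Arc Egr4 (0.91), for Junb Egr4 (0.85) and Arl4d (0.79), for Npas4 Rgs2 (0.89), for Egr1 Rgs2 (0.86), for Nr4a1 1700016P03Rik (0.90) and Dusp14 (0.89), and for Fosb Mrps35 (0.69). Of these Egr4, Arl4d, Rgs2 and Dusp14 are on the list of other activity-induced genes. The 3 genes most like Homer1 were Peli1 (0.91), Sik2 (0.90) and Actr3 (0.90), and those most like Egr3 were Btg3 (0.82), Rheb (0.79) and Arc (0.78). Those most like Jun were Fam160a2 (0.73), Cisd2 (0.72) and Cacybp (0.71), none of the 7 members searched, and those of Fosb had 0.78, 0.72 and 0.69. Without the 3 low mice 12 of the 30 places went to the same genes and 8 to members. Arc and Egr4 remained among the 3 for Fos and for Junb, Npas4 and Egr4 for Arc, Arc for Npas4 and for Egr1, Mrps35 for Fosb, Fam160a2 and Cisd2 for Jun and Sik2 for Homer1, and Rgs2, Dusp14 and 1700016P03Rik did not. These values describe likeness over the same libraries, with no test.

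The 3 low mice were low in part of the group. In Drd1+ neurons all 3 lay below all other 29 mice in Fos (0, 0 and 0.703 CPM against 0.785 to 15.7), Egr1, Arc, Nr4a1 and Npas4 (4.03, 9.28 and 9.60 CPM against 19.6 to 98.4). In Junb 2 of the 3 lay below all others (14.8, 19.1 and 10.3 CPM against 16.2 to 83.9). All 3 lay within the range of the others in Jun, Fosb, Egr3 and Homer1, with the 129S1/SvImJ mouse at the low end in Homer1 (404.6 against 404.2 to 910 CPM). In Drd2+ neurons that mouse lay below all others in Homer1 (347 against 371 to 849 CPM). The A/J mouse did so there in Egr3 (16.2 against 16.9 to 72.2 CPM), and all 3 mice did so in Junb. The same 3 mice had summed levels of 77.4, 85.1 and 122 CPM in Drd2+ neurons, against 146 to 497 CPM, but 78.6, 128 and 86.5 CPM in oligodendrocytes, within the 36.5 to 149 CPM of the others. Their median depth (6650.5 to 7356.5 UMIs), mitochondrial share (1.31 to 1.63%), oligodendrocyte markers (1036 to 1108 CPM) and heat shock genes (402 to 576 CPM) were within the ranges of the other mice, as were the summed upstream genes described next.

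Gene lists of the same pathway were counted in Drd1+ neurons. Of 40 other activity-induced genes 28 were tested, and the strain term called 20 by edgeR, against 61.7% of all genes, led by Dusp5, a nuclear phosphatase of ERK kinases (8.59 CPM in PWK/PhJ, 1.25 CPM in A/J; adjusted p = 1.61e-09). These 20 are 71.4% of those tested, and their list's median F was 3.55, against 3.38 over all genes. Of 27 upstream kinases and factors, all tested, 16 were called (59.3%), led by Crtc3, a coactivator of CREB (adjusted p = 1.66e-10), with a median F of 3.73. Of 12 heat shock genes 8 were tested (not Hspa1a, Hspa1b, Hspb1 or Bag3) and edgeR called 1 (12.5%), Hsp90aa1 (adjusted p = 3.27e-05), with a median F of 1.95. The summed other activity-induced genes also stood lower in the 3 low mice, at 372, 473 and 509 CPM against 542 to 916 CPM, while the upstream genes did not (7466 to 8372 against 6863 to 8645 CPM). In Drd2+ neurons the strain term called 14 of 27 other activity-induced genes (51.9%, against 55.9% of all genes; median F 2.89 against 2.95), 16 of 27 upstream genes (59.3%) and 3 of 8 heat shock genes (37.5%), by edgeR. In Drd1+ neurons of PWK/PhJ the sum of other activity-induced genes was 844 to 900 CPM, against 372 to 916 CPM in the other strains.

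Homer1 in Drd1+ neurons averaged 732 ± 117, 742 ± 128, 544 ± 123 and 593 ± 130 CPM (SD, n = 8) in batches 1 to 4, and 686, 699, 508 and 566 CPM in Drd2+ neurons. In the Drd1+ and Drd2+ clusters the batch term of edgeR called Homer1 alone of the 10 (adjusted p = 0.000747 in Drd1+, with 24.8% of all genes called, and 0.00612 in Drd2+, with 21.7%). The adjusted p was 0.000726 and 0.00211 without the 3 low mice. Without batch 3 it was called in neither, and without batch 2 only in Drd1+ neurons.

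In oligodendrocytes, batch 3, the shallowest, had the lowest levels of the 3 genes called. They had Egr1 at 19.9, 19.1, 7.98 and 13.9 CPM in batches 1 to 4 (edgeR adjusted p = 0.00197), Egr3 at 17.2, 16.4, 5.69 and 14.5 CPM (0.00380) and Homer1 at 85.1, 82.3, 60.6 and 71.0 CPM (0.0159), with 17.8% of all genes called. Arc in astrocytes fell from 27.3 and 23.9 CPM in batches 1 and 2 to 12.2 and 12.0 CPM in batches 3 and 4 (edgeR adjusted p = 0.0257, with 4.92% called). Against this order, Junb in Drd1+ neuron_2 was highest in batch 3, at 22.0, 24.3, 69.2 and 38.7 CPM (edgeR adjusted p = 0.00195, with 5.18% called). In endothelium Jun was lowest in batch 3 (53.8 CPM, n = 5, against 162 CPM in batch 1; edgeR adjusted p = 0.0103) and Homer1 highest (617 against 267 CPM; 0.00990), with 25.6% of genes called. In macrophages (9.59% of all genes called), Nxph1+ interneurons (3.34%) and the Polydendrocyte/Oligodendrocyte cluster (0.0953%) edgeR called 0 of 2, 0 of 1 and 0 of 1 of the genes tested, of which Homer1 had an unadjusted p under 0.05 in the first 2, and DESeq2 called 0. Batch was a pool, a capture and a sequencing library at once, which cannot be told apart.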

How the data were processed

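Nuclear RNA and open chromatin were read from the same nuclei (10x Multiome) in 4 pooled batches. The deposited matrices hold raw counts of UMIs per gene and barcode, made by the authors with Cell Ranger ARC 2.0.0 on mm10 (GRCm38) after bcl2fastq 2.20.0.422, per the submitters' processing notes; reads were not reprocessed. Strain calls, the doublet filter and cluster names are categories (unit other) of the table the authors deposited, per the labels' protocols, and were used unchanged; peak positions came from the deposited list (unit other). No further filter on nuclei was applied. Counts are nuclear RNA, and CPM compare samples for 1 gene, not genes with each other.

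Counts were summed per mouse and cluster. Libraries of at least 10 nuclei were kept, and the 9 clusters with at least 3 mice of every strain were tested. In edgeR 4.0.16 (R 4.3.3), after filterByExpr and TMM scaling, a robust quasi-likelihood model of strain and batch was fitted to all genes. Within a cluster, Benjamini-Hochberg adjustment ran over all genes, separately for each term and for each strain comparison, with a threshold of 0.05. The adjusted p of a strain comparison is therefore not corrected for the number of strains compared. Replicate numbers are batches, which the labels say were pooled and captured together, so batch is the block in each fit within a cluster. The interaction fit has the mouse as its block. Mice are separate animals. Log2 CPM used a prior count of 2; correlations used 100000 permutations of mice within batch, two-sided (scipy 1.17.1, numpy 2.4.6). Co-detection with up to 17 mice used all sign assignments in place of random ones. Intervals are exact (95%) and cover counting error only. The fits were tested on simulated data with known changes. The simulated spread was near the median of all genes and below that of these 10 genes in Drd1+ and Drd2+ neurons. It does not show how often the fits find or miss changes in them. Alternatives were other size factors, no filter, no batch block, libraries of at least 30 nuclei, DESeq2 1.42.0, another prior count, other thinning depths and leaving out each batch; the alternatives without 3 low mice with Npas4 as the dividing gene and with co-detection over all genes were chosen after seeing the data. The 10 genes and the gene lists were chosen with earlier results of these data known. All 10 genes were computed for every result, and those the results turn on are named. From a list the called gene with the largest F was named, and for likeness the 3 genes with the highest r. Of 29 upstream genes 27 were found by symbol. Promoter windows in the RefSeq table matched 7 of the 10 genes. Sex and the matrix of peaks by nuclei were not analysed here.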

Additional observations from a re-analysis of the deposited data

Results flagged for a closer look

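Dixon's ratio marked a mouse far from the other 3 of its strain in 5 of 160 groups of 4 mice, and chance alone marks about 1 in 20 groups. Junb in Drd1+ neurons was 63.4 CPM in the A/J mouse of batch 3, against 19.1 to 24.6 CPM in the other A/J mice. Nr4a1 in Drd1+ neurons was 30.8 CPM in the CAST/EiJ mouse of batch 3, against 46.6 to 49.8 CPM. Fosb in Drd2+ neurons was 8.43 CPM in the 129S1/SvImJ mouse of batch 1, against 2.56 to 3.23 CPM. Npas4 in Drd2+ neurons was 86.5 CPM in the CAST/EiJ mouse of batch 4, against 53.7 to 55.7 CPM. Jun in Drd2+ neurons was 6.77 CPM in the NZO/HlLtJ mouse of batch 2, against 1.60 to 2.47 CPM.

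The strain differences of Homer1 differed between Drd1+ and Drd2+ neurons by the interaction term of edgeR (adjusted p = 0.00332, Benjamini-Hochberg over all genes, 32 mice).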

How the results depend on the processing

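The number of genes called by the strain term, 3 of 10 in each projection neuron type, became 10 in both with no filter on low counts and 5 (Drd1+) and 6 (Drd2+) without the 3 low mice; leaving out a batch gave 2 to 4 and 1 to 3, and DESeq2 gave 3 and 4. The batch term, 1 gene in each, became 7 and 3 with no filter, and 0 to 1 in each when a batch was left out. The interaction, 1 gene, became 2 with no filter and 0 to 2 when a batch was left out. For the replicate block: with no replicate block the interaction called 0 genes, and the strain term called 3 in each type, with Egr3 (adjusted p = 0.044) in place of Homer1 (0.143) in Drd2+ neurons, by edgeR. The 9 strain comparisons in Drd1+ neurons became 1 to 11 when a batch was left out and the 7 in Drd2+ neurons 1 to 8, with 12 in Drd2+ neurons without the 3 low mice. The 4 genes higher in PWK/PhJ became 1 to 4 in Drd1+ and 1 to 4 in Drd2+ neurons when a batch was left out. Co-detection with Fos gave 0 genes in both types at 1000 UMIs, where 4 and 5 mice remained and the smallest possible p was 0.125 and 0.0625. The cause of the other changes was not tested.

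Of the alternatives for a single gene, 181 of 226 strain-term results, 211 of 232 batch-term results, 70 of 70 relations between Drd1+ and Drd2+ neurons, 74 of 80 interaction results, 83 of 108 co-detection results, 285 of 315 pairs and 72 of 112 strain comparisons kept their direction and side of the threshold. Of the co-detection results 22 lost the call, 15 of them at 1000 UMIs. The sign changed in 13 pair results and, at 1000 UMIs, in 1 co-detection result (Fosb in Drd1+ neurons), none called over all mice or in the alternative. Of 100 shares of nuclei 27 moved beyond their counting interval, 20 of them on thinning to 2000 in place of 1000 UMIs. Over all genes, the batch term without batch 3 called 1114 genes in place of 3331 in Drd1+ neurons, 746 in place of 2781 in Drd2+ neurons, 443 in place of 1615 in oligodendrocytes, 140 in place of 404 in astrocytes, 95 in place of 370 in macrophages, 21 in place of 287 in Drd1+ neuron_2 and 10 in place of 1274 in endothelium. The interaction called 96 in place of 631 with no mouse block. In endothelium the strain term called 161 genes, 527 with no filter, 71 with no batch block, 68 without batch 1 and 63 without batch 2. In Nxph1+ interneurons its 61 genes became 468 with no filter, 109 by DESeq2 and 24, 28 and 28 without batch 1, 2 and 4, and in the Polydendrocyte/Oligodendrocyte cluster its 26 became 221, 75 and, without batches 1 to 4, 11, 9, 58 and 6. In astrocytes it called 1767, and 1165 and 1138 without batch 1 and 2; in Drd1+ neuron_2 958, and 628 without batch 2. Low counts limit Fos, Fosb and Jun most, at 0 to 51, 1 to 32 and 1 to 27 UMIs per mouse in Drd1+ neurons.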
